A study of Equus caballus with 4 samples.

Results

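The myosin heavy chains of striated muscle were examined in differentiating equine satellite cells, the resident stem cells of skeletal muscle. A set of 8 genes was considered, comprising MYH1, MYH2, MYH3, MYH4, MYH6, MYH7, MYH8 and MYH13. A probe was a member when it was no control spot and the array named it after one of these genes. That gave 17 of the 43603 different probes on the array, for 7 of the 8 genes. MYH6 had no probe under its own symbol, and the 2 probes whose description names it are given separately. The cells came from the semitendinosus muscle of young stallions and were taken to day 3 of differentiation. The HMB-treated group had received 50 µM HMB (β-hydroxy-β-methylbutyrate, a leucine metabolite) for 24 h, with 3 mM H2O2 present during the last 1 h, and the control had received the same H2O2 without HMB, so that both groups carried the oxidant and neither was an untreated culture. Each of the 4 arrays held HMB-treated RNA in the Cy5 channel and control RNA in the Cy3 channel, with no dye swap, so treatment and dye cannot be told apart. Every array carries a control labelled as replicate 1, and the methods state that a single culture was chosen, for its viability and fusion, so that all arrays may come from 1 animal. The 4 ratios may therefore lack the spread between animals and between control cultures, and the p-values measure only the spread between these arrays.

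The myosin heavy chain is the motor subunit of the thick filament. It binds actin and splits ATP, and the isoform a fibre carries sets much of its speed of shortening. MYH3 encodes the embryonic isoform and MYH8 the perinatal isoform, which appear in developing and regenerating fibres and in cultured myotubes. MYH7 encodes the slow isoform that also serves as the beta chain of the heart, and MYH6 encodes the alpha cardiac chain. MYH2 and MYH1 encode the adult fast isoforms of type IIa and type IIx fibres, MYH4 the type IIb isoform, and MYH13 the isoform of extraocular muscle. The developmental and fast genes lie side by side in mammalian genomes, and MYH6 and MYH7 form a second, separate pair.

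The probe positions given with the arrays, on EquCab1, followed this arrangement. The 14 member probes on chromosome 11 lay on the minus strand in the order MYH13, MYH8, MYH4, MYH1, MYH2 and MYH3, over 302 kb from 51603143 to 51904884. The MYH7 and MYH6 probes lay on unplaced sequence, 29.6 kb apart. Probes of 60 bases that spread over a much longer stretch of genome crossed an exon junction. These were the upstream MYH2 probe (1749 bases), the upstream MYH1 probe (1784 bases) and both MYH6 probes (421 bases each). The array annotation used gives no exon or UTR for any probe.

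The probes of MYH2 and MYH1 are shown because these genes are close copies and their probes behaved differently. Over 55 aligned bases the probes differed at 9, which are in capitals, and were 83.6% identical. The MYH2 probe lies at chr11:51808152-51809900 and the MYH1 probe at chr11:51780579-51782362.
MYH2 A_69_P002377: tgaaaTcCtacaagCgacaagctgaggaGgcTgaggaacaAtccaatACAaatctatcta
MYH1 A_69_P001364: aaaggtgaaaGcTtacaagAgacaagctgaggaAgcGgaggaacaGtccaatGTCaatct

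The MYH6 probes are shown because they overlap and yet gave very different signals. The 40 bases they share are in capitals, and the probes are offset by 20 bases, at chrUn:181253304-181253724 and chrUn:181253324-181253744 on the plus strand.
MYH6 A_69_P114991: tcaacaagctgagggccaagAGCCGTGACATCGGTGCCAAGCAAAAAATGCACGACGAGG
MYH6 A_69_P003971: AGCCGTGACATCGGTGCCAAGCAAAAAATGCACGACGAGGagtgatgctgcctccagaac

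The MYH3 probe, which reported the embryonic isoform, and the MYH13 probe, the single member with a ratio above 0 on most arrays, were at most 53.8% identical to a probe of another member over 30 or more aligned bases. They lie at chr11:51904825-51904884 and chr11:51603143-51603202, and no part is marked in capitals.
MYH3 A_69_P035991: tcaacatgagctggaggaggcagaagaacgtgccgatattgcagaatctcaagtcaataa
MYH13 A_69_P035981: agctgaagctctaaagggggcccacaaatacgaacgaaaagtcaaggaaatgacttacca

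Several members repeated almost the same sequence. The 3 MYH7 probes were shifted against each other by 1 base (chrUn:181223623-181223681) and are 3 readings of a single site. Among the 8 MYH2 probes, 7 lay within 51807900 to 51808019, at the 3′ end of the transcript. The letters AATAAA, the usual polyadenylation signal, were searched on the probe strand. They were present in all 3 MYH7 probes and in 5 MYH2 probes, against 8.6% of all probes on the array. The MYH1 probe at the 3′ end and the MYH4 probe were identical at 54 of 57 aligned bases (94.7%). Of 43584 other probes on the array, 0 were at least 80% identical to a member probe over 30 or more bases. Transcript sequences were not used here, so binding of a probe to the RNA of a related gene was not tested.

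Values below are log2 ratios of HMB-treated over control, so a negative ratio means a lower signal with HMB. Over all 24670 tested probes the median ratio was −0.07, and 7046 probes (28.6%) were called (adjusted p up to 0.05 with an FC of 1.3 or more), with 4050 lower (16.4%) and 2996 higher (12.1%). Lower probes made up 57.5% of the calls. This split depended on scaling, and it was 45.0% with normexp background correction, 39.9% with no background correction, 47.6% with median centering and 93.3% with scaling to the spike-in RNA, which moved the median of all probes to −0.56. A probe was tested when either channel was well above background on all 4 arrays. Of the 17 member probes, 6 were tested, 11 were not, and 10 were at background in both channels on every array.

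All 6 tested member probes were lower in the HMB-treated group, beside the 16.4% of all tested probes called lower. They represented MYH3, MYH8, MYH7 and MYH2. The count is not 6 separate measurements, because the 3 MYH7 probes read the same site, and the MYH2 probe entered the test through the control channel alone. With both channels required, 5 members were tested and 5 were lower, beside 14.7% of all probes. The members were lower by more than the FC of 1.3 also in limma's treat test, which tests against that fold itself, where 5.19% of all probes were called lower. No member spot was saturated or marked as an outlier.

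**Figure D1:**
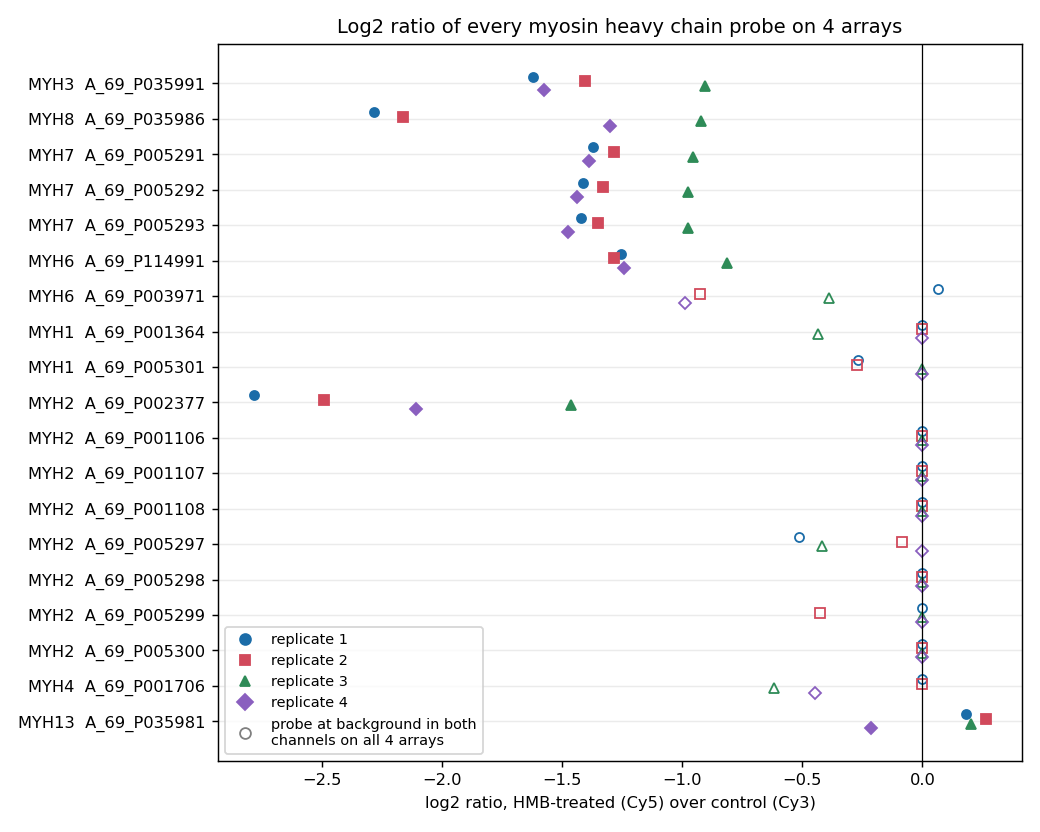
The horizontal axis gives the log2 ratio of HMB-treated over control and each row is a probe, with 1 marker for each of the 4 arrays and open markers where the probe was at background in both channels throughout. The MYH3, MYH8, MYH7, MYH2 (A_69_P002377) and MYH6 (A_69_P114991) probes lay below 0 on all 4 arrays, and replicate 3 was the nearest to 0 in each.

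Among the developmental isoforms, MYH3 gave bright signals. The log2 ratio of its probe was −1.62, −1.40, −0.91 and −1.58 on replicates 1 to 4. All 4 arrays were lower with HMB, and replicate 3 showed the smallest fall. The Cy3 signal ranged from 80352 to 88921 and the Cy5 signal from 27041 to 44595. The mean ratio was −1.38 ± 0.33 (SD, n = 4), a 2.60-fold lower level (limma, adjusted p = 0.000403). Of all tested probes, 0.713% had a lower mean ratio.

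MYH8, the perinatal isoform, gave log2 ratios of −2.29, −2.16, −0.92 and −1.30 at its single probe (chr11:51670611-51670670). The arrays fell into a larger drop on replicates 1 and 2 and a smaller one on replicates 3 and 4. The control signal was between 205 and 382 and the HMB-treated signal between 69.7 and 146. The mean was −1.67 ± 0.66 (SD, n = 4), which is 3.18-fold lower (limma, adjusted p = 0.00219). Its SD was the largest among the tested members.

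MYH7 encodes the slow isoform. Its brightest probe by the mean log2 signal of both channels, A_69_P005291, gave −1.37, −1.29, −0.96 and −1.39 on the 4 arrays, and the mean was −1.25 ± 0.20 (SD, n = 4), or 2.38-fold lower (limma, adjusted p = 0.000154). The Cy3 signal of this probe ranged from 76279 to 84019 and its Cy5 signal from 29961 to 43288. The other two MYH7 probes had mean ratios of −1.29 and −1.31. The 3 readings thus differed from each other by less than the SD between arrays.

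The alpha cardiac gene MYH6 gave different results at its overlapping probes. A_69_P114991 had log2 ratios of −1.26, −1.29, −0.81 and −1.24, with a mean of −1.15 ± 0.23 (SD, n = 4), or 2.22-fold lower (limma, adjusted p = 0.000280). Its signal was 9228 to 11543 in the control and 3902 to 6266 with HMB. A_69_P003971, which shares 40 bases with it and extends 20 bases further downstream, was at background in both channels on all 4 arrays, with control signals of 19.3 to 31.6. The levels of different probes cannot be compared directly, but 1 of these probes was detected on every array and the other on none. Which transcript the brighter probe bound was not tested. Of the cardiomyocyte markers, NKX2-5, MYL7 and GATA4 were at background in both channels on every array. NPPA, NPPB and TNNI3 were above background in the control on all 4 arrays and were called lower, although NPPA was above background with HMB on only 2 arrays. RYR2 was above background in the control on 3 arrays but was not tested.

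Among the adult fast isoforms, a single probe met the detection rule. The upstream MYH2 probe, A_69_P002377, gave deposited ratios of −2.78, −2.49, −1.46 and −2.11. Its control signal of 27.4 to 47.5 was well above background on all 4 arrays, but the HMB-treated signal of 5.47 to 13.7 was so on none. The ratio is therefore only a bound. Set against the lowest signals still well above background, the bright mean gave a 1.53-fold lower level with HMB. This bound is approximate, because undetected spots can exceed those lowest signals. On replicate 1 the MYH6 probe A_69_P003971 was at background with a Cy5 signal of 29.5. The lowest detected Cy5 signal there was 23.9, so the MYH2 fall could be smaller than 1.53-fold. The mean of the ratios as deposited was −2.21 ± 0.57 (SD, n = 4; limma, adjusted p = 0.000411). Normexp was run with an added offset of 50, which exceeds every signal of this probe, and the part of that offset in its ratio was not tested. With normexp background correction the mean was −0.34 and the adjusted p from limma was 0.0502, so the call was lost, and with no background correction the mean was −0.50. Under both settings it was nearer to 0 than the means of MYH3, MYH7 and MYH8, so no rank among the isoforms is given. The 7 MYH2 probes at the 3′ end were at background in both channels on all 4 arrays, so that these MYH2 probes disagreed on whether the transcript was detected in the control.

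Both MYH1 probes were at background in both channels on all arrays. Their signals lay between 4.34 and 7.94 in the control and between 5.87 and 8.02 with HMB. The upstream MYH1 probe was thus not detected at the aligned site where the MYH2 probe was detected in the control. The MYH4 probe (chr11:51722655-51722714), which the array describes as a pseudogene transcript, was at background as well. No ratio of these probes is interpreted, because the deposited ratio is set to 0 on many arrays for such spots.

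MYH13 did not meet the detection rule, although it was detected on most arrays. Its log2 ratios were 0.18, 0.26, 0.20 and −0.22, with a mean of 0.11 ± 0.22 (SD, n = 4). Both channels were well above background on replicates 1 to 3 and neither on replicate 4, whose control signal was 10.6 against 46.6 to 97.7 on the others. The probe was therefore not tested, and no change in either direction was shown. When the rule was dropped, limma gave an adjusted p of 0.493.

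**Figure D2:**
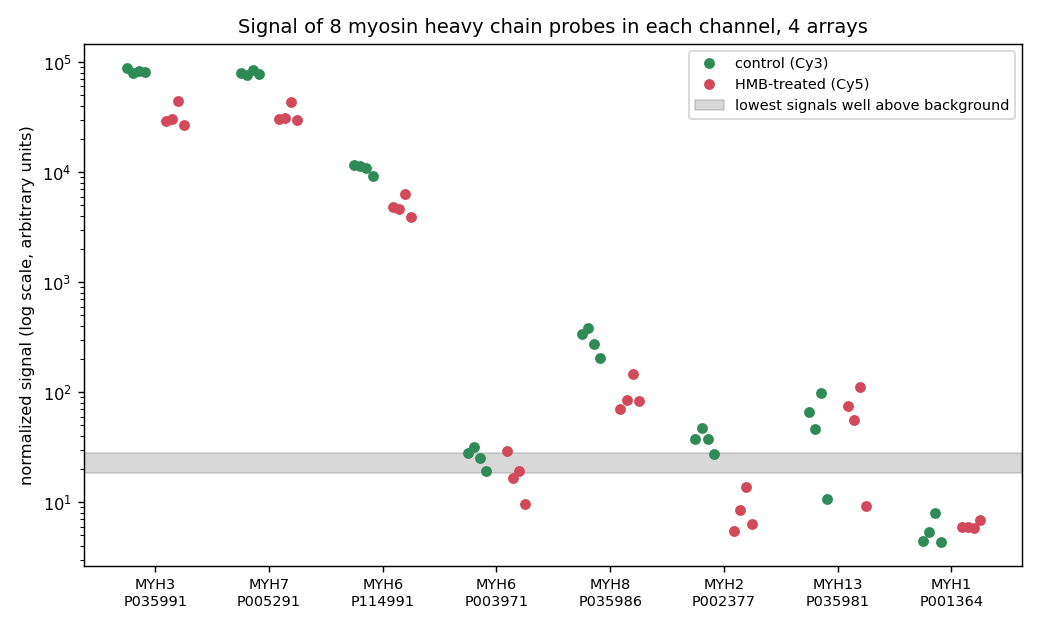
The vertical axis gives the normalized signal on a log scale in arbitrary units for 8 probes, with green points for the control (Cy3) and red points for the HMB-treated group (Cy5), 4 arrays each, and a grey band that spans the lowest signals called well above background on each array. Control and HMB-treated points were separate for MYH3, MYH7, MYH8, MYH2 and the MYH6 probe A_69_P114991, and the MYH1 probe lay under the band in both channels. The share of all tested probes with such separation was not counted, and the HMB-treated MYH2 points were at background on every array.

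The isoforms were compared within each array in 6 pairs, by an exact two-sided sign-flip test whose smallest possible p is 0.13 with 4 arrays, so that no pair could reach 0.05. MYH3 and MYH7, the bright embryonic and slow isoforms, lay close together on each array. Their difference (MYH3 minus MYH7) was −0.25, −0.12, 0.05 and −0.19, with a mean of −0.13 ± 0.13 (SD, n = 4; exact p = 0.25, adjusted p = 0.375). MYH8 was lower than MYH7 on 2 of 4 arrays, with a mean difference of −0.42 ± 0.55 (exact p = 0.5, adjusted p = 0.5). MYH3 minus MYH8 averaged 0.29 ± 0.50, and MYH3 was the lower of them only on replicate 4 (exact p = 0.375, adjusted p = 0.45). The other 3 pairs involve MYH2, whose ratio is only a bound, so their differences are not measured here. MYH3 minus MYH8 and MYH8 minus MYH7 changed sign when the background was corrected by normexp or left uncorrected. The MYH8 mean was −0.95 with normexp, run with an added offset of 50. With no background correction, which has no offset, it was −1.11. Why these differences changed sign was not tested. The sign was the same under each scaling and background setting run for MYH3 minus MYH7. Spike-in scaling shifts all probes of an array alike, so it could not change this difference. Its mean ranged from −0.18 to −0.08 over all alternatives, and both ends came from leaving a replicate out.

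Replicate 3 had the smallest fall in all 6 tested member probes and in the MYH6 probe. It was the array with the smallest fall for 32.8% of all probes called lower. Without replicate 3 the mean ratio was −1.53 for MYH3, −1.35 for MYH7, −1.92 for MYH8 and −2.46 for MYH2.

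The symbols whose 4 ratios were closest to those of MYH3 and MYH7, by the root mean square difference among 7571 symbols detected in both channels, included the muscle genes ACTN3 and DES in both cases. For MYH3 the nearest was MYH7 through its probe A_69_P005293 (0.12, against 0.17 for the brightest MYH7 probe, which would stand behind ESYT3, ACTN3 and ITGA7), followed by ESYT3, ACTN3, ITGA7 and DES (0.17 at most). For MYH7 the nearest was ACTN3 (0.07), followed by DES, ESYT3, TGFB2 and CLCN4 (0.11 at most). ACTN3 encodes the alpha-actinin of fast fibres, DES the muscle intermediate filament desmin and ITGA7 a laminin receptor of muscle. The ACTN3 ratios were −1.49, −1.36, −0.90 and −1.37, and the DES ratios were −1.36, −1.32, −0.79 and −1.40.

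The members were set beside other class II myosin heavy chains, taking the brightest tested probe of each gene. By this rule 17.3% of all 8351 tested genes were lower and 10.1% higher. Of 7 such genes, 4 were tested and 1 was lower. MYH7B, an ancient sarcomeric relative of MYH7, gave −1.08, −1.80, −0.91 and −1.61, with a mean of −1.35 ± 0.42 (SD, n = 4; limma, adjusted p = 0.00103). The nonmuscle chains, which serve cell shape and division, were not called. MYH9 had a mean of −0.20 ± 0.53 (limma, adjusted p = 0.423), MYH10 of −0.30 ± 0.37 (limma, adjusted p = 0.12) and MYH14 of 0.24 ± 0.38 (limma, adjusted p = 0.208). MYH11 and MYH15 were not detected by the rule and MYH16 had no probe by name.

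The partners of the heavy chain in the thick filament mostly fell with it. Of 14 genes, 12 were tested, 9 were lower, 0 were higher and 3 were not called, beside 17.3% of all tested genes lower. Their median ratio was −0.74, beside −0.07 for all tested probes. The largest falls were in the M-band and scaffold proteins that hold thick filaments in register. MYOM1 (myomesin) had a mean of −1.22 ± 0.20, MYOM2 of −1.12 ± 0.11, MYOM3 of −1.11 ± 0.32, and the giant spring protein TTN (titin) of −1.17 ± 0.23 (SD, n = 4 each). MYBPC2, the fast myosin-binding protein C, fell by 0.89 on the log2 scale.

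The light chains, which stabilise the lever arm of the motor, had ratios nearer to 0, although the difference from the scaffold proteins was not tested. The means were −0.78 ± 0.16 for MYLPF (the fast regulatory chain), −0.70 ± 0.21 for MYL3 (the slow essential chain), −0.54 ± 0.13 for MYL2 (the slow regulatory chain) and −0.48 ± 0.14 for MYL4 (the embryonic essential chain), and each was called lower. MYL1, the fast essential chain (−0.30 ± 0.15), MYL6B (−0.34 ± 0.07) and the myosin-binding protein MYBPH (0.11 ± 0.20) were not called. MYL1 and MYL6B passed the adjusted p (0.0194 and 0.00554, limma) but stayed under the FC of 1.3. MYBPC1 and MYBPC3 were at background.

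Genes for the folding and turnover of myosin were next. Of 9 genes, 8 were tested, 6 were lower and 0 were higher, with a median ratio of −0.57, beside 17.3% of all tested genes lower. UNC45B, the muscle chaperone that folds the myosin head, was −0.92 ± 0.08, and its general relative UNC45A was −0.40 ± 0.12. HSP90AB1, a co-acting heat shock protein, was −0.63 ± 0.16. TRIM63 (MuRF1), a ubiquitin ligase that marks myosin for degradation, was −1.16 ± 0.16, and its relatives TRIM55 and TRIM54 were −1.19 ± 0.08 and −0.51 ± 0.19 (SD, n = 4 each). HSP90AA1 and STIP1 were not called, and SMYD1 was not tested. With the treat test 3 of these genes were lower, beside 5.19% of all tested probes.

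**Figure D3:**
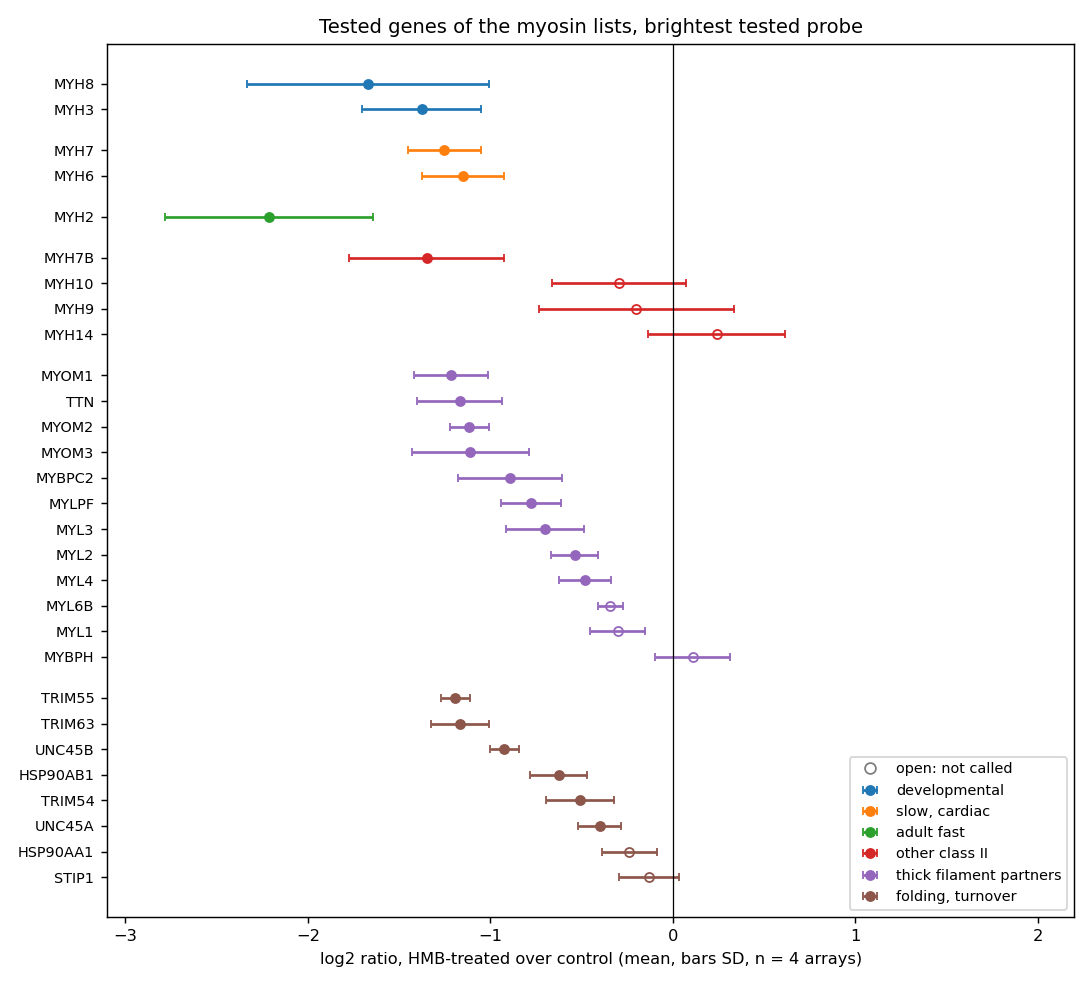
The horizontal axis gives the mean log2 ratio of HMB-treated over control with bars for the SD over 4 arrays, for the brightest tested probe of each gene, with open points where a gene was not called. Tested heavy chains of the sarcomere lay at −1.15 or lower, thick filament partners mostly between −1.22 and −0.30, and the nonmuscle chains MYH9, MYH10 and MYH14 around 0. MYH1, MYH4 and MYH13 were not tested and are not drawn. The MYH2 point is only a bound, and the MYH6 point is 1 of its 2 probes.

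Most regulators of the myosin heavy chain genes were not called. Of 24 genes, 20 were tested, 6 were lower, 1 was higher and 13 were not called, and the median ratio was 0.00, beside 17.3% of all tested genes lower and 10.1% higher. The lower count was 2 with normexp or no background correction, 3 with treat and 13 with spike-in scaling. Of all tested probes, 6.46% were lower with normexp, 7.18% with no background correction, 5.19% with treat and 70.2% with spike-in scaling. MYF5 was lower (−1.49 ± 0.34), as was EYA1, a transcriptional coactivator (−1.47 ± 0.47, with the HMB-treated signal above background on 1 array). MYF6, a myogenic factor of mature fibres, was called lower on its deposited ratios, but its HMB-treated signal was above background on 0 arrays. Its level is only approximately bounded, at 1.18-fold lower against the lowest detected signals, which is under the FC of 1.3. VGLL2 (−0.53 ± 0.21), TCF12 (−0.44 ± 0.10) and MEF2A (−0.38 ± 0.17) were lower too. NFATC4, a calcineurin-dependent transcription factor, was higher (0.64 ± 0.15; SD, n = 4 each). This rise was not called with the treat test or with spike-in scaling, under which 0 of the genes were higher, and 2 genes were higher without replicate 4. TBX15 was not called by its brightest probe (0.32 ± 0.26), although 2 of its 3 tested probes were higher. MYOG and MYOD1, the factors that drive and maintain the myogenic programme, gave 0.03 ± 0.22 (limma, adjusted p = 0.807) and 0.32 ± 0.25 (limma, adjusted p = 0.0441, with a mean difference under log2 of the FC threshold) respectively. The other tested MYOD1 probe had a mean of −0.11, so the MYOD1 probes differed in sign, and neither was called.

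Markers of the muscle lineage fell with the heavy chains, whereas those of fibroblasts and leukocytes that were called rose. Over all tested genes, 17.3% were lower and 10.1% higher. Of 11 myotube markers, all were tested, 9 were lower and 1, ENO3, was higher. MB, among the lower ones, was above background with HMB on only 1 array. The summed signal of the 11 markers was 138428 to 162125 in the control and 68117 to 98410 with HMB. Their median ratio was −0.87, −1.02, −0.61 and −0.96 on replicates 1 to 4, so replicate 3 had the smallest fall here too. Of 7 satellite cell and myoblast markers, 6 were tested and 5 were lower, with a summed signal of 27594 to 34205 in the control and 10746 to 17144 with HMB, whereas PAX7 was at background. DES stands in both of these lists. Its signal of 17884.5 to 22929.7 in the control made up most of the control sum of the satellite cell markers, and it was 6945 to 10912 with HMB. Of 8 fibroblast markers, 5 were higher and 0 lower, with a median ratio of 0.54, and their summed signal was 444563 to 543935 in the control and 443063 to 688882 with HMB. Among these, PDGFRA had a mean of 1.49 ± 0.26 (SD, n = 4), whereas the brightest probes of the collagen genes COL1A1, COL1A2 and COL3A1 were not called, although 3 of the 7 COL3A1 probes were higher. The part of these markers in the fall of the heavy chains was not tested, and in RNA from whole cultures fewer myotubes and less myosin RNA per myotube cannot be told apart.

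Markers of other cell types were tested as well, beside the same shares of 17.3% lower and 10.1% higher over all tested genes. Of 6 leukocyte markers, 3 were tested and 2, CD68 and PTPRC, were higher, with a summed signal of 15824 to 20146 in the control and 19283 to 30888 with HMB, and CD163 and ITGAM were at background. CD14 was tested but not called (0.20 ± 0.19), and CSF1R was not tested. PTPRC, at 12172 to 15755 in the control, made up most of the control sum. Of its 15 probes, 6 were tested and these 6 were higher. All 4 endothelial markers were at background. Of 5 smooth muscle markers, 4 were tested and 1 was lower (32929 to 44076 in the control and 30817 to 47595 with HMB). Of 7 cardiomyocyte markers, 3 were tested and 3 were lower, from a summed signal of only 268 to 350 in the control to 141 to 194 with HMB. NPPA, among these 3, was above background with HMB on only 2 arrays.

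**Figure D4:**
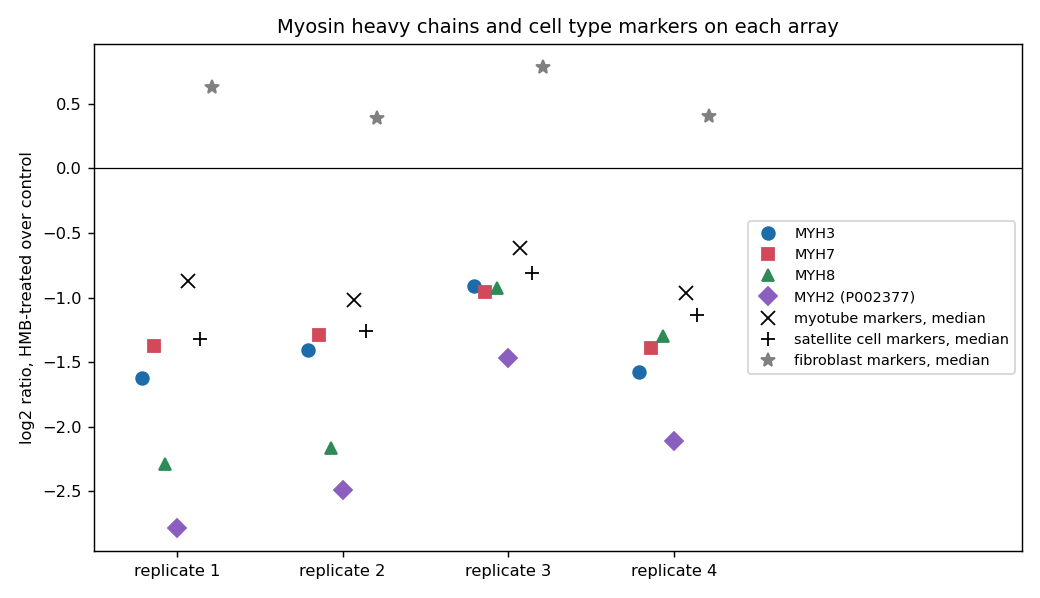
The vertical axis gives the log2 ratio of HMB-treated over control on each of the 4 arrays, for the MYH3, MYH7, MYH8 and MYH2 probes and for the median of the tested myotube, satellite cell and fibroblast markers. On replicate 3 the heavy chains and the muscle markers were nearest to 0, with MYH3 at −0.91 and the myotube median at −0.61, and the fibroblast median was highest at 0.78.

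The direction of MYH3, MYH7, MYH8 and MYH6 was the same under each of the 18 alternatives run for a gene, and each was called lower in all of them. Several alternatives left these ratios unchanged, so that the direction could not differ there. They included the authors' table, the detection filters, marked spots kept, the methods' t-test, treat and trend. The mean ratio of MYH3 ranged from −1.86 with spike-in scaling to −0.90 with median centering, that of MYH7 from −1.74 to −0.77 under the same settings, and that of MYH6 from −1.64 to −1.06. MYH8, which was dimmer, ranged from −2.16 with spike-in scaling to −0.95 with normexp background correction.

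**Figure D5:**
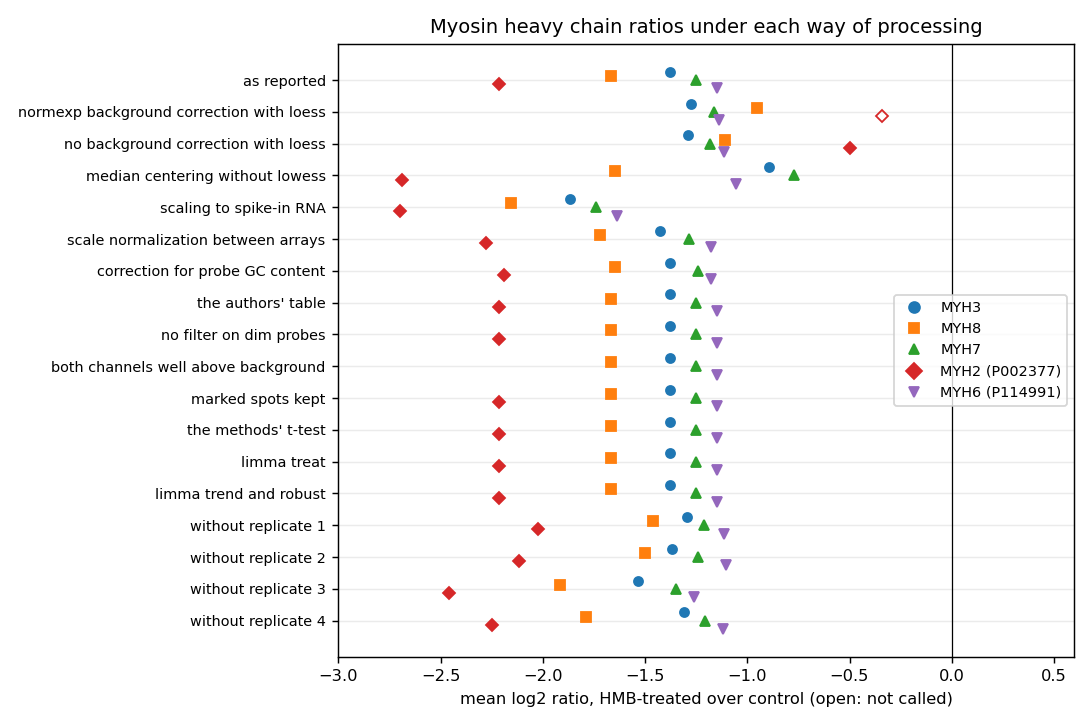
Each row is a way of processing and the horizontal axis gives the mean log2 ratio of HMB-treated over control for 5 probes, with open markers where the probe was not called. The ratios of MYH3, MYH7 and MYH6 stayed between −1.86 and −0.77, whereas MYH2 moved from −2.21 to −0.34 with normexp background correction (offset 50).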

How the data were processed

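Two-colour Agilent horse arrays with probes of 60 bases were analysed, 4 in all. The intensity values in the deposited scanner files were background-subtracted and then normalized within each array by linear and lowess steps in Feature Extraction, whose version per the file headers is 10.10.1.1. The log10 ratios of Cy5 over Cy3 are deposited as well, and the log2 ratios used here were calculated from the deposited log10 values. Ratios of spots near background are compressed or set to 0.

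Control spots and spots marked as outliers were left out, and spots of a probe were averaged. Tests used limma 3.58.1 in R 4.3.3, with an intercept, empirical Bayes moderation and Benjamini-Hochberg adjustment over all tested probes. Probes were tested when Cy3, or else Cy5, was well above background on each of the 4 arrays and 3 or more arrays gave a ratio. Isoform differences were tested by exact sign flips within arrays. The test code was checked on simulated data.

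All members were described. Of the other lists, tested myosin and thick filament genes were named, as were called folding genes and regulators, and the 5 symbols nearest to MYH3 and MYH7. A few genes that belong to these lists were left out of them and of their counts and are not reported here. Members and lists were chosen with earlier results of these data known. MYH6 and some listed genes were named from probe descriptions. Alternatives covered background correction, scaling, GC content, the authors' table of the same ratios, the detection filter, marked spots, the methods' t-test, limma treat, limma with trend, and each replicate left out. Normexp was run with an offset of 50.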

Additional observations from a re-analysis of the deposited data

Results flagged for a closer look

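The ratios of 24 groups of 4 arrays were examined for a sample far from the rest, and 1 was found, where chance gives about 1 in 20. It was the MYH6 probe A_69_P114991, in which replicate 3 (−0.81) stood apart from the other arrays (−1.29 to −1.24), with a gap of 0.908 of the whole range.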

How the results depend on the processing

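The number of probes called over the whole array was 3539 with normexp, 4440 without background correction, 18571 with spike-in scaling and 2822 with treat, and 6637 to 7151 when a replicate was left out. The count of member probes called lower was 5 with normexp and with both channels required, where MYH2 was lost, and 6 in the other alternatives. MYH2 averaged −0.34 with normexp, whose offset of 50 exceeds the signals of its probe, and was not called. The differences that involve MYH2 rest on a ratio that is only a bound. With normexp, the differences were −0.32 for MYH3 minus MYH8, −0.94 for MYH3 minus MYH2, 0.21 for MYH8 minus MYH7, −0.61 for MYH8 minus MYH2 and −0.82 for MYH7 minus MYH2. Without background correction, the same differences were −0.18, −0.79, 0.075, −0.61 and −0.68. Of all tested probes, 6.46% were lower with normexp, 7.18% without background correction, 70.2% with spike-in scaling and 5.19% with treat. With median centering, 3953 of 24660 tested probes were higher. Of the other class II chains, 3 were lower with spike-in scaling and 1 was higher with median centering. Folding genes called lower numbered 3 with treat. Regulators called lower numbered 2 with normexp, 2 without background correction, 13 with spike-in scaling and 3 with treat, and those called higher numbered 0 with spike-in scaling and with treat, 2 with no filter on dim probes, and 1 to 2 when a replicate was left out. The causes were not tested. Low signal limits MYH2 and MYH13, and the smallest exact p of 0.13 limits the isoform differences. Each ratio pairs both channels of an array, so the tests of the ratios are paired by array only. The labels show no pairing of cultures, because every array carries a control labelled as replicate 1.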
